A study of Mus musculus with 3 samples.

Results

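The keratins are the proteins of the epithelial intermediate filament. The members described here were all gene rows of the mouse skin matrices whose symbol was Krt followed by a number, with pseudogenes left out. There were 53 of them among 31253 rows, 28 of type I and 25 of type II. The data were 2 skin libraries of bead-selected CD45 cells captured in microwells, with 1 library per group. The control library came from mice treated with MC903, a vitamin D analogue used to provoke dermatitis-like skin inflammation, and the other came from mice given both RHS and MC903. RHS is not spelled out in the labels, and the series title speaks of psychological stress. The sources used here do not give age, strain, sex, dose or how many mice went into either skin library. The third library held nuclei of sympathetic ganglia from mice given RHS and MC903. It has no control, and 30 mice were pooled for it.

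Keratins assemble as obligate pairs of an acidic type I and a basic type II chain. Basal cells of the epidermis and its appendages make Krt5 with Krt14, spinous cells switch to Krt1 with Krt10, and Krt6, Krt16 and Krt17 mark follicle cells and wounded or inflamed epidermis. Krt25, Krt27, Krt28, Krt71 and Krt73 belong to the inner root sheath, the sleeve that guides the growing hair. Krt8 and Krt18 are the pair of simple epithelia, and the hair shaft has its own set, among them Krt31 to Krt36 and Krt81 to Krt86.

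The 2 libraries held 12577 and 12953 cells after filtering, with medians of 3233 UMIs (unique molecular identifiers, counted molecules) per cell in control and 3101 in RHS. A keratin level is given as CPM, the gene's count per 1000000 UMIs summed over a group of cells. It is not divided by gene length because each UMI counts 1 molecule. With 1 library per group no test between the groups was possible, and the 95% intervals given below are exact and cover counting error only. The gate was meant for immune cells, yet 1408 control cells (11.2%) and 697 RHS cells (5.38%) fell in clusters with non-keratin epidermal markers such as Perp, Sfn, Dsp and Trp63. They are called keratinocyte-like. Ptprc, which encodes CD45, had a UMI in 32 of the control and 44 of the RHS keratinocyte-like cells. All keratin rows were left out of the clustering and of the marker lists, so keratin levels did not form these groups. Keratins could still take places among the leading genes of a cluster, which 1 step of the naming used.

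Of the 53 keratins, 5 had no UMI in any kept skin cell, namely Krt33b, Krt34, Krt40, Krt82 and Krt88. A further 23 had 1 to 19 UMIs, and 25 had 20 or more. In keratinocyte-like cells 19 keratins reached 50 UMIs over both libraries, and 34 did not. The 34 included every hair shaft keratin measured, from Krt31 to Krt36 and from Krt81 to Krt87. The family summed to 145716 UMIs, 96374 in control and 49342 in RHS, and Krt14, Krt79, Krt16, Krt5 and Krt17 held 81.8% of them.

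Promoter sequences were matched by symbol in a RefSeq table of build GRCm38.p6, which held 36 of the 53 keratins. The 5 inner root sheath promoters are shown because those genes were counted together in 1 subcluster. Krt10 and Krt20 are shown as a spinous and an endothelial example of the same feature, and Krt14 as an abundant keratin without it. Each line gives the 150 bases before the annotated start, read 5′ to 3′ on the minus strand, and capitals mark TATAAA, which is the core promoter box that positions the start. In Krt10 they also mark AGATAA, which is a motif of zinc finger factors. The windows are chr11:99322952-99323101 for Krt25, chr11:99351119-99351268 for Krt27, chr11:99374904-99375053 for Krt28, chr15:101743098-101743247 for Krt71, chr15:101802361-101802510 for Krt73, chr11:99389365-99389514 for Krt10, chr11:99438154-99438303 for Krt20 and chr11:100206031-100206180 for Krt14.
Krt25: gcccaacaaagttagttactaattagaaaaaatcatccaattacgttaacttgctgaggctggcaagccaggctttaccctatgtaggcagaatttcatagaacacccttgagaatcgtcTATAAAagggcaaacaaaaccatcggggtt
Krt27: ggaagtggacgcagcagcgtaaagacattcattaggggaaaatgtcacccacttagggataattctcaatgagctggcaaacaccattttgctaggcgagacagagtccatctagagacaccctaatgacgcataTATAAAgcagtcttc
Krt28: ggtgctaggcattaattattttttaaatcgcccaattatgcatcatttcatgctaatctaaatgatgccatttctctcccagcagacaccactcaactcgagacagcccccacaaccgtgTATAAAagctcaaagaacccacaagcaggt
Krt71: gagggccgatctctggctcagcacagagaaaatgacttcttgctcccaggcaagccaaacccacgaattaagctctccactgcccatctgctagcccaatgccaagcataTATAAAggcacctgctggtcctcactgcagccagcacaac
Krt73: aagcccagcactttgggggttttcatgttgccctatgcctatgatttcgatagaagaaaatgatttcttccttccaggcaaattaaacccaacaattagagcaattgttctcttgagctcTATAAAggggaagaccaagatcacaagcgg
Krt10: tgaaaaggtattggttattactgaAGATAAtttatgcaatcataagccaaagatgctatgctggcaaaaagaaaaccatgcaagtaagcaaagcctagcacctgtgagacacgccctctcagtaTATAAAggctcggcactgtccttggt
Krt20: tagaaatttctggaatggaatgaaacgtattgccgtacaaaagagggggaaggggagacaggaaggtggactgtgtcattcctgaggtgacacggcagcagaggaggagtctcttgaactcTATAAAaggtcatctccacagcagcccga
Krt14: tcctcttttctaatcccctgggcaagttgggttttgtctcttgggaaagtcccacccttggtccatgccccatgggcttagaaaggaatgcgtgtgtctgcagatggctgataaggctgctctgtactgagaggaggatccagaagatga

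TATAAA began 30 bases before the start in Krt25, Krt28 and Krt73, 40 in Krt71, 15 in Krt27, 26 in Krt10 and 29 in Krt20. Searched on both strands, it was present in 15 of 36 keratin windows (41.7%) and in 2488 of all 32851 windows of that length (7.57%). The same search found AGATAA in 2 keratin windows (5.56%, against 5.65% of all windows). TGANTCA, the AP-1 site, was in 0 of 36 keratin windows against 4.24% of all, and GCCNNNGGC, the AP-2 site, was in 5 (13.9% against 9.61%). These matches describe letters in the windows and not bound sites. Promoters of Krt1, Krt4, Krt6a, Krt16, Krt17 and Krt80 were not analysed here.

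Keratins made up 0.876% of all UMIs of keratinocyte-like cells in control (interval 0.871% to 0.882%) and 0.954% in RHS. Over all skin cells the share was 0.180% in control and 0.0957% in RHS, where keratinocyte-like cells were also fewer. At least 1 keratin UMI was counted in 1405 of 1408 control keratinocyte-like cells. In other cells 21.3% of control and 16.3% of RHS cells had one. Langerhans-like cells, for example, gave 0.00931% of UMIs as keratin in control. The heatmap of levels by class shows the contrast for each gene.

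**Figure D1:**
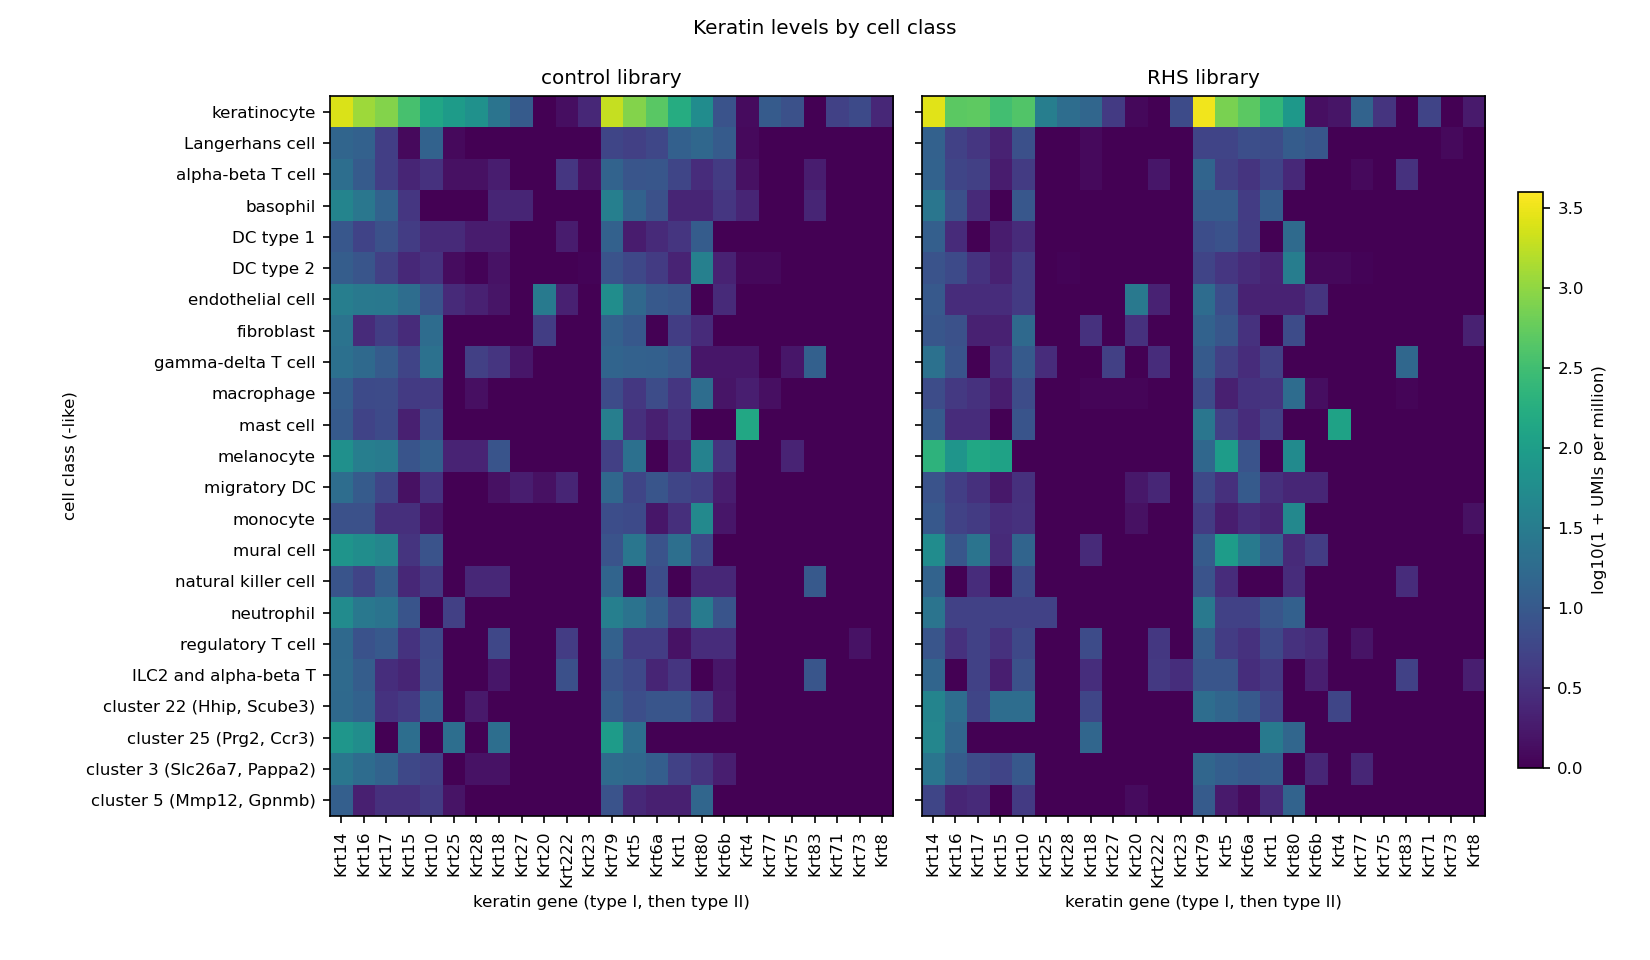
Levels of the 25 keratins with 20 or more UMIs (columns) in each cell class with at least 50 cells in both libraries (rows), as log10 of 1 plus CPM, for the control (left) and RHS (right) library. The keratinocyte row is brightest for Krt14 and Krt79, while the brightest Krt4, Krt20 and Krt83 entries lie in the mast, endothelial and gamma-delta T rows.

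The keratinocyte-like cells comprised clusters 12, 16 and 27 in different proportions. Cluster 12, led by follicle genes such as Dlx3 and Lhx2, had 545 control and 60 RHS cells, cluster 16 had 635 and 413, and the sebaceous cluster 27 had 228 and 224. Sub-clustered again without keratins, they gave 3 groups that were named by non-keratin markers and several that were left unnamed. The named ones were a bulge and outer root sheath-like group (125 control and 58 RHS cells), an upper follicle and spinous-like group (366 and 185) and a sebaceous gland-like group (217 and 199). Dct, a melanocyte gene, was among the leading genes of the bulge-like group. Of the unnamed, subcluster 0 had 436 control and 39 RHS cells, was led by Dlx3, Plau and Cux1 beside the dermal genes Dcn and Col14a1, and had 7 proliferation markers present. Those markers gave its highest score, but it was left unnamed because Dlx3, a hair matrix marker, was among its leading genes. Subcluster 3, led by Lcn2, Akr1c18 and Cxcl1, had 227 and 189 cells. Subcluster 4 (19 and 11 cells) was led by T cell genes and subcluster 7 (18 and 16) by myeloid genes.

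The subclusters had distinct keratin programmes, which the plot of levels by subcluster displays. In the sebaceous-like group Krt79, a keratin of the upper follicle and the gland duct, stood at 5038 CPM in control and 5211 in RHS. Krt14 was next at 2712 and 2515 CPM, whereas its usual partner Krt5 was at only 31.0 and 57.5. In the upper follicle and spinous-like group Krt14 (4148 and 3776 CPM), Krt79 (3561 and 5158), Krt6a (2333 and 1673) and Krt5 (2120 and 2537) were all high. Nearly all of the Krt1 (1727 of 1746 control UMIs) and most of the Krt10 (1266 of 1425) were counted there. Bulge-like cells had the highest level of Krt15, a keratin of follicle stem cells, in both libraries (811 and 1507 CPM). Subcluster 0 had the most Krt16 in control (2095 CPM, and 1735 in RHS), and it held 951 of 969 control UMIs of Krt25 and 637 of 679 of Krt28. All 41 control UMIs of Krt71 and 40 of 58 of Krt73 also came from it.

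**Figure D2:**
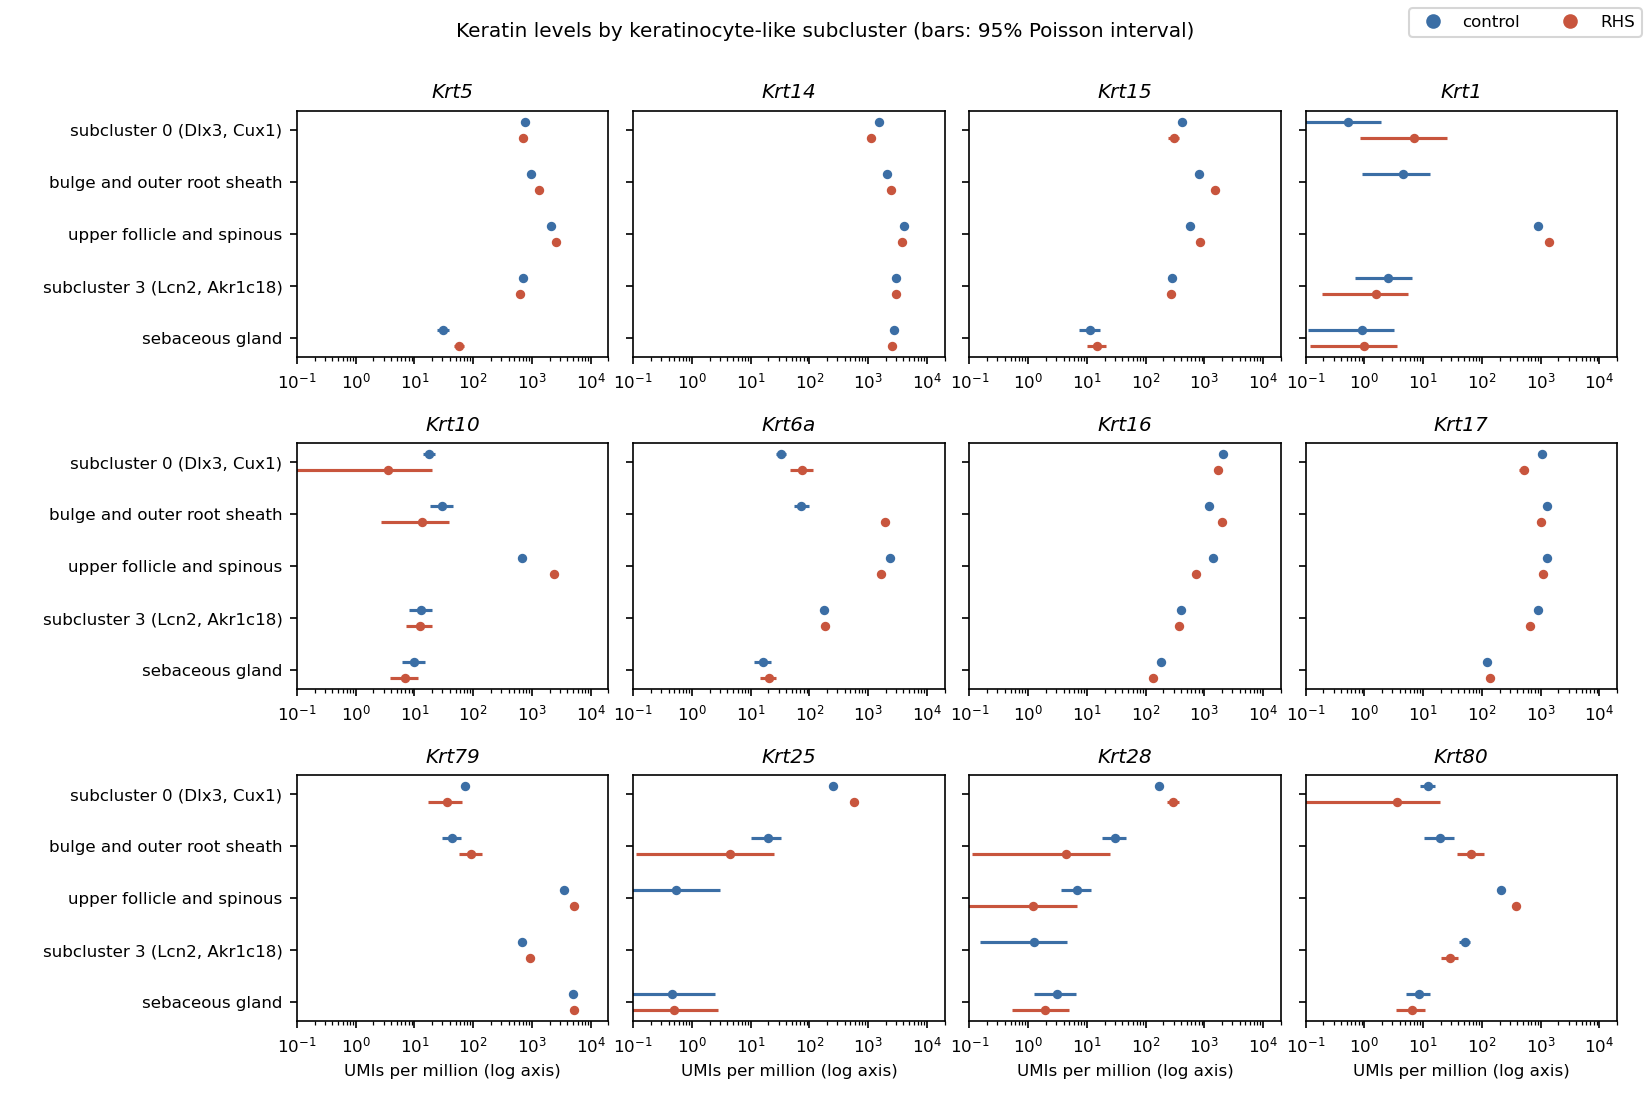
Level of 12 keratins in 5 keratinocyte-like subclusters, in CPM on a log axis, for the control (blue) and RHS (red) library; bars are 95% Poisson intervals and groups with 0 UMIs have no point. The sebaceous row combines high Krt79 with low Krt5, Krt1 and Krt10 peak in the upper follicle and spinous row, and Krt25 and Krt28 peak in subcluster 0.

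Type II UMIs per type I UMI measure how the 2 kinds balanced. The value was 0.663 in control and 1.09 in RHS over all keratinocyte-like cells. By subcluster it was 0.165 and 0.201 in subcluster 0, 0.203 and 0.496 in the bulge-like group, 0.346 and 0.408 in subcluster 3, 1.14 and 1.27 in the upper follicle and spinous-like group and 1.67 and 1.88 in the sebaceous-like group. Of these 5 subclusters the sebaceous-like group was highest and subcluster 0 lowest in both libraries.

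The 2 libraries were compared gene by gene as the ratio of RHS over control CPM. A gene was called when the ratio was at least 1.5-fold either way and its interval left out 1. Over all keratinocyte-like cells 2 of the 19 keratins were called higher in RHS, 9 lower and 8 neither. Among the 9987 genes of the class with 50 or more UMIs, 7.15% were called higher and 14.8% lower. The median log2 ratio was -0.17 for the 19 keratins and -0.08 for all genes. When each subcluster was given the same weight in both libraries, 6 keratins were called higher and 2 lower. Krt25, Krt28 and Krt71 were among the 6 and were counted mainly in subcluster 0, which had only 39 RHS cells. The reason for the changed counts was not tested.

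Among basal keratins, Krt14 was at 2514 CPM in control and 2736 in RHS and had a UMI in 1311 of 1408 and 631 of 697 cells. Its ratio was 1.09 (interval 1.07 to 1.11). Krt5 was at 850 and 754 CPM (ratio 0.887) and Krt15 at 358 and 324 CPM (0.906). None of the 3 was called. Within subclusters Krt15 was called in the bulge-like group, at 811 CPM in control and 1507 in RHS (ratio 1.86, 1.62 to 2.13), and Krt5 in the sebaceous-like group at 31.0 and 57.5 CPM (1.85, 1.37 to 2.53). Of cells with 5 or more Krt5 UMIs, 510 of 547 in control and 183 of 192 in RHS also had 5 or more of Krt14. The reverse held for 510 of 1025 and 183 of 495 cells. Among cells with fewer than 5 Krt5 UMIs, 515 of 861 in control and 312 of 505 in RHS had 5 or more of Krt14. Among those with fewer than 5 Krt14 UMIs, 37 of 383 and 9 of 202 had 5 or more of Krt5.

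The spinous pair was rare and concentrated. Krt10 had 1425 UMIs in control and 2015 in RHS, or 135 and 415 CPM, a ratio of 3.06 (2.86 to 3.28). It was called higher, but 2 cells held 34.5% of the control and 56.7% of the RHS UMIs, and without them the ratio was 2.04 (1.85 to 2.24). Krt1 was at 166 and 242 CPM (1.46) and at 1.18 without the 2 top cells. In the upper follicle and spinous-like group alone Krt10 was at 669.5 and 2360 CPM (3.52) and Krt1 at 913 and 1391 CPM (1.52), both called. There too 2 cells held 57.8% of the RHS Krt10 and 45.2% of the RHS Krt1. Of cells with 5 or more Krt10 UMIs, 25 of 28 in control and 14 of 20 in RHS had as many of Krt1, against 21 of 1380 and 3 of 677 other cells. The related Krt77 had 102 and 63 UMIs (1.34, 0.962 to 1.85), and Krt2 of the same stage had 0 in both libraries of keratinocyte-like cells.

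**Figure D3:**
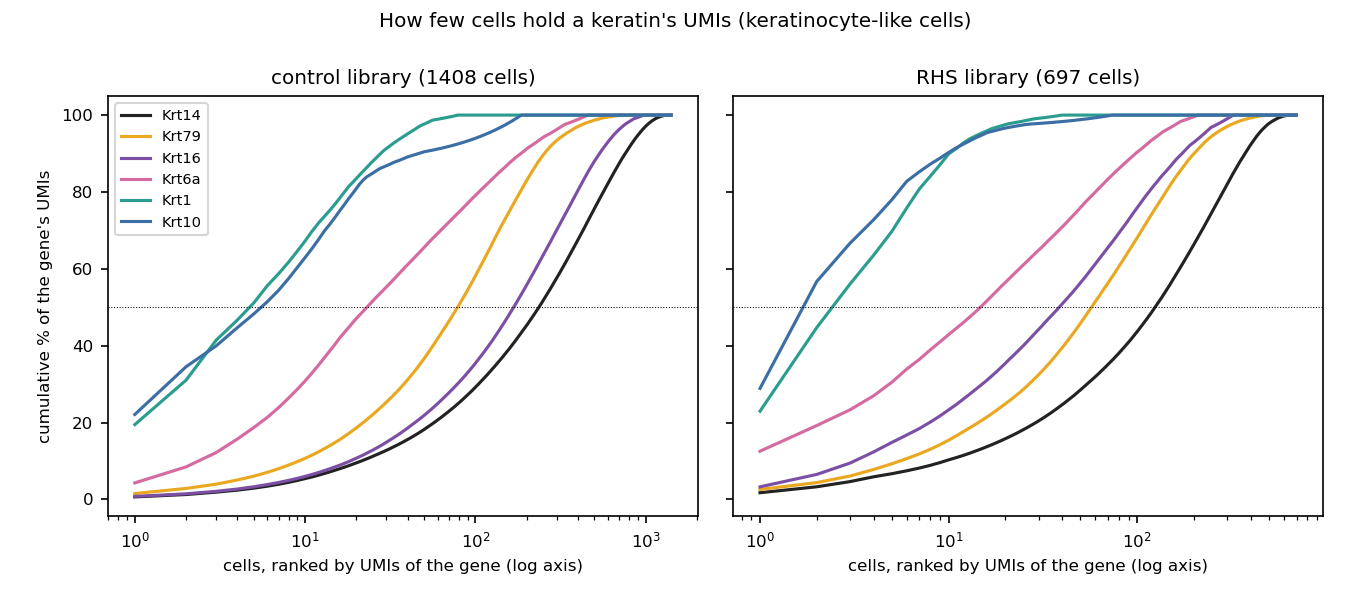
Cumulative share of a keratin's UMIs (vertical axis, percent) over keratinocyte-like cells ranked by that gene's UMIs (horizontal log axis), for 6 keratins in the control (left) and RHS (right) library. The dotted line at 50% is reached with 6 control and 2 RHS cells for Krt10, against 236 and 125 cells for Krt14.

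Keratins of activated and follicular epidermis did not move as a block. Krt16 was at 1200 CPM in control and 490 in RHS (0.408, 0.391 to 0.427) and Krt17 at 866 and 515 CPM (0.595), both called lower. Weighted alike by subcluster, the ratios were 0.808 and 0.737 and neither was called. The Krt17 ratio was 0.491 (0.414 to 0.579) in subcluster 0, 0.738 in subcluster 3 and 0.791 in the bulge-like group. In the upper follicle and spinous-like group it was 0.865, and in the sebaceous-like group 1.15. Inside the subclusters Krt16 was called in both directions. It was at 1178 and 1962 CPM in the bulge-like group (1.67, 1.48 to 1.87, and 1.49 and not called without the 2 top cells of each library) and at 1378 and 718 CPM in the upper follicle and spinous-like group (0.521, 0.476 to 0.569). Krt6a, at 477 and 499 CPM over the class (1.05), was at 73.1 CPM in control and 1967 in RHS in the bulge-like group (26.9, 20.01 to 36.9). That rested on 49 and 445 UMIs in 21 and 23 cells, with 42.0% of the RHS UMIs in 2 cells. In the upper follicle and spinous-like group it was 0.717 and not called. Krt6b had 76 UMIs in 13 control cells and 2 UMIs in 2 RHS cells (0.0570, 0.00678 to 0.213). Krt75, a companion layer keratin, had 73 and 12 UMIs (0.356, 0.176 to 0.661), and weighted alike by subcluster its ratio was 0.890 and not called. Krt80 was at 55.1 and 81.4 CPM (1.48, 1.30 to 1.68). Krt14, Krt16 and Krt17 share sequence: 7.80% of the 50-base windows in the last 600 bases of Krt14 also occur in Krt17 transcripts and 1.09% in Krt16, so some of their UMIs are uncertain.

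Krt79 was the other keratin called higher, at 1908 CPM in control and 3378 in RHS (1.77, 1.73 to 1.81). It had a UMI in 704 of 1408 control and 487 of 697 RHS cells. In the sebaceous-like group the ratio was 1.03 and in the upper follicle and spinous-like group 1.45, neither of which was called, while the bulge-like group gave 2.15 from 29 UMIs in 17 control cells and 21 UMIs in 5 RHS cells. There 2 cells held 81.0% of the RHS UMIs, and without the 2 top cells of each library the ratio was 0.569 (0.142 to 1.69). Sebaceous-like cells made up 15.4% of keratinocyte-like cells in control and 28.6% in RHS. Weighted alike by subcluster, the ratio was 1.22 and was not called. Of cells with 5 or more Krt79 UMIs, only 90 of 409 in control and 61 of 328 in RHS had as many of Krt5, but 338 and 269 had as many of Krt14. In the other keratinocyte-like cells, 457 of 999 and 131 of 369 had 5 or more of Krt5, and 687 and 226 of Krt14.

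Krt25 and Krt28 had ratios below 1 over the class and above 1 in subcluster 0, the cells that held most of their UMIs. Over all keratinocyte-like cells Krt25 was at 92.1 CPM in control and 34.0 in RHS (0.369, 0.311 to 0.436), Krt28 at 64.5 and 18.3 (0.284) and Krt27 at 9.98 and 3.09 (0.310). All 3 were called lower. Within subcluster 0, Krt25 was at 249 and 576 CPM (2.31, 1.95 to 2.73), Krt28 at 167 and 293 (1.76, 1.38 to 2.21) and Krt27 at 23.6 and 35.3 (interval of the ratio 0.695 to 2.89). RHS had only 39 cells there, and 2 of them held 30.1% of its Krt25 and 36.1% of its Krt28. Without the 2 top cells of each library, the subcluster 0 ratio was 1.90 (1.55 to 2.32) for Krt25. For Krt28 it was 1.28 (0.951 to 1.70), an interval that includes 1, and for Krt27 1.03 (0.369 to 2.35). Weighted alike by subcluster, the class ratios were 2.23, 1.57 and 1.30. Krt71 was at 3.90 and 4.53 CPM over the class from 41 UMIs in 13 control and 22 in 6 RHS cells (1.16), and without the 2 top cells the ratio was 0.457. In subcluster 0 it was at 10.7 and 74.2 CPM (6.91), with 85.7% of the RHS UMIs in 2 cells. Without the 2 top cells of each library, its ratio there was 2.33 (0.442 to 7.91). Weighted alike by subcluster, its class ratio was 6.97. Over the class Krt73 had 58 UMIs in 10 control cells and 0 in RHS. That was at least 8.92-fold lower against a floor of 3 UMIs for the RHS library. In subcluster 0, which held 40 of those 58 UMIs, control was at 10.5 CPM. The RHS floor there was 10.6 CPM, so 0 UMIs in that group cannot show a lower level. Weighted alike by subcluster, Krt73 was not called. Of the 59 control cells with 5 or more Krt25 UMIs, 16 (27.1%) had as many of Krt28, against 36 of the 1349 other keratinocyte-like cells (2.67%). In RHS this held for 3 of 9 (33.3%) against 5 of 688 (0.727%).

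Simple epithelial keratins were low. Krt18 was at 23.4 CPM in control and 14.6 in RHS (0.626, 0.473 to 0.818) and was called lower, while its partner Krt8 had only 16 and 4 UMIs. In subcluster 3 Krt18 was at 60.0 and 22.5 CPM (0.375, 0.238 to 0.573), its highest level among the subclusters compared. Krt7, Krt19 and Krt20 had at most 6 UMIs per library in keratinocyte-like cells.

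**Figure D4:**
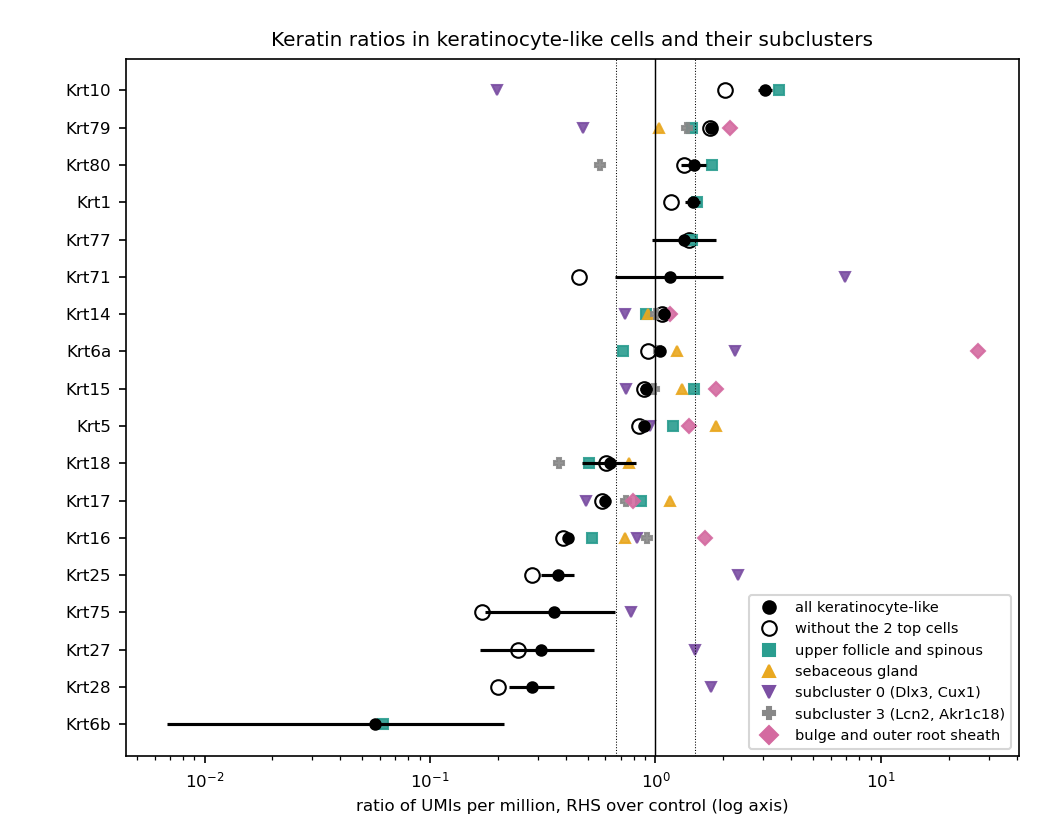
Ratio of RHS over control CPM (log axis) for the 18 keratins with 50 or more UMIs in keratinocyte-like cells and at least 1 in RHS. Filled circles with 95% intervals are all keratinocyte-like cells. Open circles leave out the 2 cells with most UMIs of the gene in each library. Coloured symbols are subclusters with 50 or more UMIs of the gene, and dotted lines mark 1.5-fold. Krt25 and Krt28 lie at 0.369 and 0.284 over the class but at 2.31 and 1.76 in subcluster 0. Without the 2 top cells of each library, the subcluster 0 ratios were 1.90 and 1.28 (not drawn).

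By subcluster the counts of called keratins were as follows. In the bulge-like group 4 of 7 measured were higher (Krt6a, Krt79, Krt15 and Krt16) and 0 lower, where 6.43% and 11.2% of all genes were called. Without the 2 cells with most UMIs of each gene in each library, Krt15 (1.69) and Krt6a (24.1) were still called there, and Krt79 and Krt16 were not. In the upper follicle and spinous-like group 3 of 13 were higher (Krt10, Krt80 and Krt1) and 3 lower (Krt16, Krt6b and Krt18), against 4.31% and 6.33%. Without the 2 top cells Krt1 (1.25) and Krt18 (0.482) were not called, and Krt77 (1.56, higher) and Krt6a (0.600, lower) were. In the sebaceous-like group 1 of 8 was higher (Krt5) and 0 lower, against 2.04% and 4.73%. Without the 2 top cells Krt5 (1.61) and Krt15 (2.20) were higher and Krt16 (0.632) was lower. In subcluster 3, 0 of 9 were higher and 2 lower (Krt80 and Krt18), against 2.52% and 4.86%.

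The 4 lists of other genes of the filament system were read in the same way over all keratinocyte-like cells. There 7.15% of genes were called higher and 14.8% lower. The lists were not weighted alike by subcluster, although the make-up of the class differed between the libraries. Subcluster 0 had 436 control and 39 RHS cells, and sebaceous-like cells made up 15.4% and 28.6% of the class. Pkp2 was among the leading genes of a sebaceous-like subcluster. Whether this make-up contributed to the ratios below was not tested. Of the desmosome and plakin genes, which anchor keratin filaments at cell junctions, 15 of 17 were measured, with 2 higher and 3 lower. Pkp2 was at 18.1 CPM in control and 35.4 in RHS and Dsc2 at 6.94 and 11.7, while Pkp3 was at 182 and 91.3, Evpl at 6.18 and 3.09 and Plec, the linker plectin, at 25.9 and 11.7. Among 8 hemidesmosome genes, which hold the basal layer to its membrane, 0 were higher and 2 lower, Itgb4 (0.602) and Lamb3 (0.563). Col17a1, at 108 and 121 CPM (1.12), and Cd151, at 138 and 135 CPM (0.978), were the highest ratios. Of 17 transcription factors 0 were higher and 3 lower, Hoxc13, a hair factor (70 and 10 UMIs, 0.310), Cebpa (0.580) and Notch1 (0.629). The basal regulator Trp63 was at 108 and 149.8 CPM (1.38) and Cebpb at 365 and 483 (1.32), neither called. Of the keratin-bundling and filament partners 7 of 11 were measured and 2 were higher, Flg and Vim (69.0 and 104 CPM, 1.51). Flg, which encodes filaggrin, had 15 UMIs in 4 control and 78 in 4 RHS cells. In control 1 cell held 12 of its UMIs, and in RHS 1 cell held 64. The lowest ratios of this list were 0.806 for Sfn and 0.869 for Csnk1a1.

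Outside keratinocyte-like cells, 4197 control and 3036 RHS keratin UMIs were counted, 4.35% and 6.15% of the family. In alpha-beta T cell-like cells, which should lack keratins, Krt14 was at 19.3 CPM in control and 12.6 in RHS and Krt79 at 12.8 and 13.3. These values serve as a reference level and not as the background of every class. In control, keratins made up 0.00812% of UMIs there, 0.00649% in natural killer-like, 0.0147% in basophil-like and 0.0248% in neutrophil-like cells. Several keratins stood above their own level in alpha-beta T cell-like cells in particular classes.

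Krt4, known as a type II keratin of internal stratified epithelia, was counted mainly in mast cell-like cells. There it had 134 UMIs in 86 of 214 control cells (40.2%) and 62 UMIs in 47 of 127 RHS cells (37.0%), or 143 and 118 CPM. The highest single cell held 7 UMIs, so the signal was spread over many cells. In keratinocyte-like cells it was at 0.285 and 0.618 CPM, from 3 UMIs in each library, and in alpha-beta T cell-like cells at 0.459 and 0 CPM. Thinned to 1000 UMIs per cell, 13.6% and 11.2% of mast cell-like cells had it, against 0.0466% and 0% of alpha-beta T cell-like cells. Median depths were 4168 and 3773 UMIs in the former and 2152 and 1945 in the latter. Krt4 made up 68.4% and 68.1% of all keratin UMIs of mast cell-like cells. The ratio between libraries was 0.825 (0.601 to 1.12).

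Krt20, a type I keratin known from gut epithelium and Merkel cells, was counted in endothelial-like cells. It had 51 UMIs in 31 of 436 control cells and 45 UMIs in 30 of 464 RHS cells, at 29.3 and 27.7 CPM (ratio 0.945, 0.619 to 1.44). Keratinocyte-like cells had 0 and 1 UMI, and alpha-beta T cell-like cells 0 and 0. The cluster had the vessel markers Pecam1, Cdh5 and Kdr. The type II keratins of simple epithelia were rare, with 10 UMIs of Krt7 and 23 of Krt8 over all skin cells.

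Krt83, a type II hair keratin, had 0 UMIs in keratinocyte-like cells of both libraries and 63 in all. Of these, 18 control and 8 RHS UMIs were in 17 and 7 cells with gamma-delta T cell markers, at 11.6 (6.89 to 18.4) and 15.1 (6.54 to 29.8) CPM. The cluster with both type 2 innate lymphoid and alpha-beta T cell markers (7.94 and 3.95 CPM) and alpha-beta T cell-like cells (0.918 and 2.26 CPM, from 2 and 10 UMIs) also had it. Natural killer-like cells had 9.06 CPM in control and 1 UMI in RHS, under the floor of 5.50 CPM. Regulatory T cell-like cells had 0 in both libraries, with upper interval limits of 1.76 and 2.07 CPM.

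Krt80, a broadly expressed type II keratin, had 580 of its 1279 control UMIs and 395 of its 1138 RHS UMIs in keratinocyte-like cells, and the rest elsewhere. Monocyte-like cells were at 48.9 and 46.6 CPM, type 2 dendritic cell-like cells at 36.0 and 32.0, macrophage-like cells at 18.28 and 18.04 and alpha-beta T cell-like cells at 1.84 and 1.58. Melanocyte-like cells were at 38.8 and 51.5 CPM from 31 and 7 UMIs. Langerhans-like cells were at 15.0 and 10.2 CPM and type 1 dendritic cell-like cells at 10.3 and 16.6. Not all myeloid classes had it: Krt80 made up 0% of the keratin UMIs of mast cell-like cells in both libraries. In basophil-like cells it made up 0.935% and 0%. The keratinocyte-like level was 55.1 and 81.4 CPM. Krt80 made up 59.3% and 61.8% of the keratin UMIs of monocyte-like cells but 2.26% and 2.89% of those of alpha-beta T cell-like cells. Thinned to 1000 UMIs, 5.097% and 4.54% of monocyte-like cells had it, against 0.238% and 0.0821% of alpha-beta T cell-like cells.

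Krt6b in Langerhans-like cells had a different shape. It had 40 UMIs in 8 of 595 control and 34 in 9 of 602 RHS cells, and 2 cells held 34 and 25 of them. In the 8 and 9 cells with Krt6b, Krt6a had 9 and 5 UMIs, in 4 and 3 cells. Krt1 was counted in 5 and 2 of these cells (36 and 5 UMIs) and Krt10 in 4 and 2 (37 and 4 UMIs). Krt14 had 26 UMIs in 1 control cell and 9 UMIs in 3 RHS cells. Cd207, the Langerhans marker, was counted in 1 cell per library. Keratinocyte-like cells with Krt6b had 374 and 91 Krt6a UMIs, in 12 and 2 cells. Large values for basal keratins in some rare classes likewise sat in few cells: 94.9% of the 59 Krt5 UMIs of RHS mural-like cells were in 2 cells, and 79.3% of the 29 Krt14 UMIs of RHS melanocyte-like cells were.

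**Figure D5:**
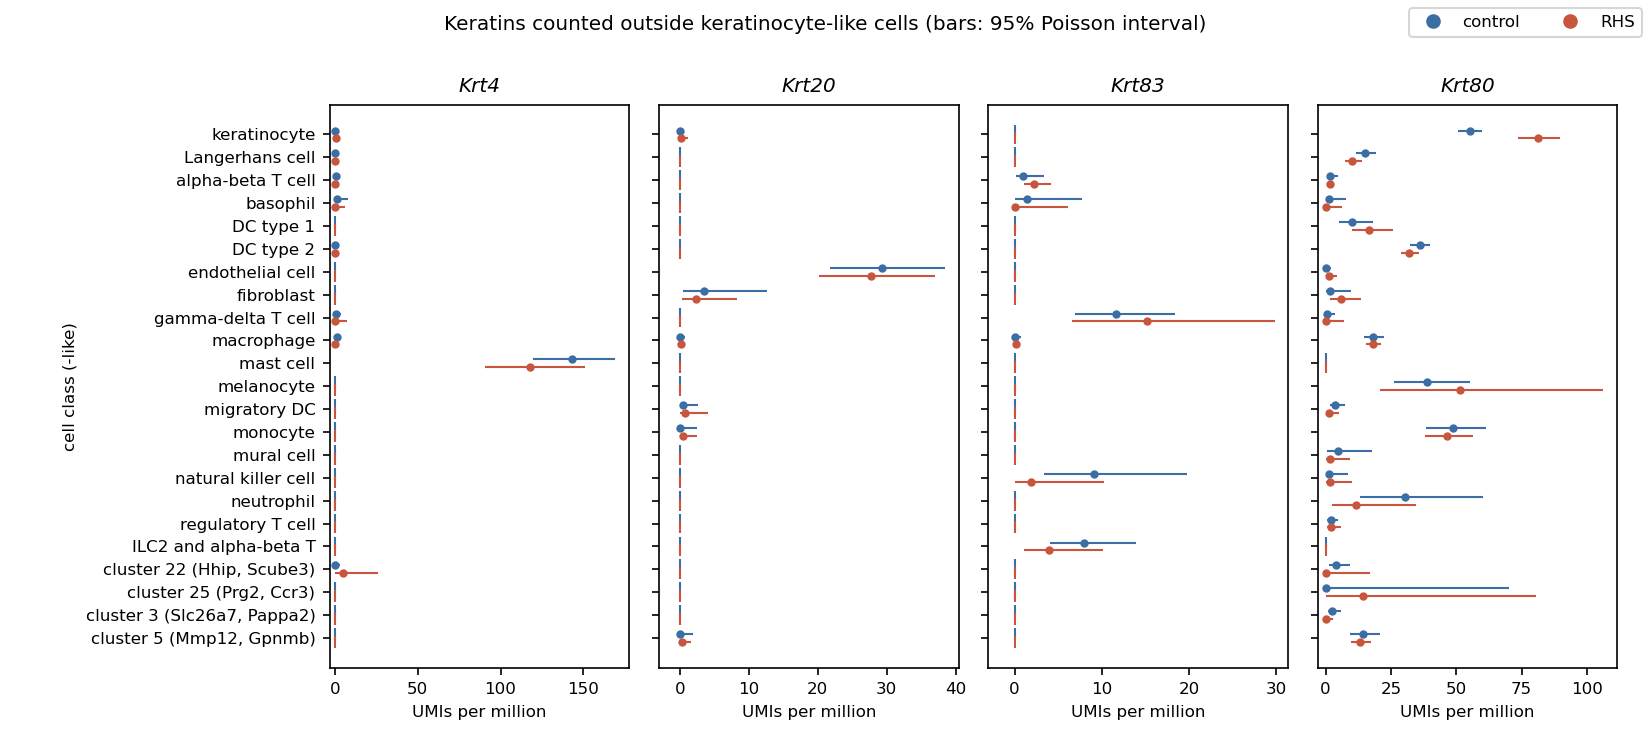
Levels of Krt4, Krt20, Krt83 and Krt80 in CPM (horizontal axis, scale differs by gene) in every class with at least 50 cells in both libraries, control in blue and RHS in red, with 95% Poisson intervals; ticks at 0 are classes with no UMI. Krt4 reaches 143 and 118 in mast cell-like cells, Krt20 reaches 29.3 and 27.7 in endothelial-like cells, and Krt80 is highest in keratinocyte-like and some myeloid classes.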

How the data were processed

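The deposited matrices contain raw UMI counts, whole and not normalized, and Cell Ranger 7.1.0 wrote the ganglia file per the file headers. The submitters' processing notes name GRCm39, R 3.6.0, Seurat 5.1.0 and Cell Ranger without roles. What called the skin barcodes is not stated. No deposited skin barcode had under 500 UMIs.

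Barcodes under 200 genes (54 control, 92 RHS) or above 20% mitochondrial UMIs (202 and 179) were dropped, and 146 (1.15%) and 115 (0.880%) doublets scored by Scrublet were removed. The libraries shared 5 barcodes. Counts were scaled to 10000 per cell and log-transformed. 2000 variable genes without keratins entered 30 components and Leiden clustering at resolution 1, or 0.5 for keratinocyte-like cells, in scanpy 1.11.5 with numpy 2.4.6 and scipy 1.17.1. Clusters took the class with the highest mean marker ratio and at least 3 markers present, a rule set after seeing the data. A second class that also had them and lay within 0.5 in mean log2 ratio was joined to the name. A cluster was left unnamed when another class had more markers among the cluster's leading genes. Summed counts gave CPM with Poisson intervals and ratios with conditional binomial intervals. A call needed 50 UMIs over both libraries and 50 cells in each. For subcluster 0 only values are given. Shares of keratin UMIs have exact Clopper-Pearson intervals. PCR copies are collapsed by UMI, but UMIs of 1 library are not independent of its handling. The ratio and the call rule were also run on simulated sums with known changes and counting error only. Those sums held no variation between cells, mice or libraries, so the run cannot speak for it. Named are all keratins with 50 UMIs in keratinocyte-like cells, those with 20 UMIs in another class at a higher level, and the 2 highest and 2 lowest ratios of each partner list. Krt80 in other classes, Krt5 and Krt14 in rare classes and other named keratins were chosen after their values were seen. The members and lists were chosen with earlier results of these data known.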

Additional observations from a re-analysis of the deposited data

Results flagged for a closer look

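Krt16 had opposite ratios in 2 groups of keratinocyte-like cells under the same contrast. The ratio of RHS over control was 1.67 in bulge and outer root sheath-like cells (125 control and 58 RHS cells) and 0.521 in upper follicle and spinous-like cells. Without the 2 cells with most Krt16 UMIs in each library it was 1.49, not called, and 0.453. Krt80 likewise had a ratio of 1.77 in upper follicle and spinous-like cells and 0.566 in subcluster 3. With 1 library per group the difference between the groups was not tested in either case.

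The ganglia nuclei, which entered no comparison, had keratin signal above the limit that a count of 0 allows (0.287 CPM). Krt13 was at 30.1 CPM (314 UMIs in 39 of 4509 nuclei), Krt4 at 24.6 (257 UMIs in 32 nuclei), Krt7 at 20.5 (214 UMIs in 61 nuclei) and Krt23 at 15.8 (165 UMIs in 31 nuclei). A set of 19 nuclei (0.421%) had UMIs of at least 2 of these 4 genes and held 290 of the Krt13 and 239 of the Krt4 UMIs. Their median depth was 4212 UMIs, against 1543 over all nuclei. In skin, Krt13 had 1 UMI in all.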

How the results depend on the processing

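No paired analysis was possible because each group had 1 library. Counts of keratins called over all keratinocyte-like cells were 2 higher and 9 lower. With a mitochondrial maximum of 10% 4 were higher, and when centred on the median ratio of all genes 4 were higher, Krt80 and Krt1 joining in both cases. At 10% Krt17 (0.737) was not called and 8 were lower. With each subcluster weighted alike in both libraries 6 were higher and 2 lower, and 3 keratins reversed, Krt25 to 2.23, Krt27 to 1.30 and Krt28 to 1.57. With doublets kept, the keratin share of keratinocyte-like UMIs was 0.864% in control and 0.933% in RHS. In cells with no Ptprc UMI, an alternative chosen after seeing the data, the RHS share was 0.964% and the calls were again 2 higher and 9 lower. Leaving out the 2 cells with most UMIs of a gene, also chosen after seeing the data, gave the same counts by ratio and interval alone. Krt6b (42 and 0 UMIs) and Krt73 (27 and 0 UMIs) then had fewer than the 50 UMIs needed for a call. Other clustering resolutions, 500 genes per cell, keratins kept in the clustering, other count minimums, subtraction of the alpha-beta T cell-like level and a denominator without keratins left 2 or 3 higher and 6 to 9 lower. Sub-clustering at 0.3 or 1.0 gave counts for the sebaceous-like group only, 1 higher and 0 lower. In the subtypes, leaving out those 2 cells left 2 keratins higher in the bulge-like group, with Krt79 reversed to 0.569. In the sebaceous-like group Krt5 was then higher and Krt16 lower, while Krt15 had too few UMIs for a call. Intervals cover counting error only and not variation between mice.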
